A study of Mus musculus with 6 samples.

Results

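The transcripts described here are those of 38 mouse genes that act at the G1/S transition and in DNA replication, measured in bone marrow-derived macrophages with and without vimentin. The genes were listed by name for their function with earlier results of these data known, although the rule itself uses no difference between samples. Each gene was read from the probe set (a group of short oligonucleotides on the array that gives 1 value) whose annotation names that gene alone, and a gene with several was read from the one with the highest mean over the 6 arrays. In this way 37 of the 38 genes were measured, and all 37 passed the limit on dim genes, a mean log2 value of 6.93. They are 37 of 13445 genes tested and of 18193 genes with a probe set of their own. Chaf1a, a subunit of chromatin assembly factor 1, is not analysed here.

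Macrophages were grown from the marrow of mice deficient in vimentin and of their wild-type littermates, and total RNA of 3 biological replicates of each genotype was hybridised to Affymetrix mouse expression arrays. Vimentin, encoded by Vim, is an intermediate filament protein, and the labels do not say how the gene was inactivated. All 6 samples came from mice aged 17 weeks on a C57BL/6 background fed rodent chow, and femoral marrow was grown in normoxic culture with supernatant of CMG14-12, a line used as a source of M-CSF (macrophage colony-stimulating factor). The series design names transplantation of vimentin-deficient marrow into atherosclerosis-prone mice that lack the low-density lipoprotein receptor, whereas the labels describe these samples as cultured macrophages of the vimentin-deficient and littermate animals.

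In a cell that enters the cycle, D-type and E-type cyclins with their kinases inactivate the retinoblastoma family, and E2F factors then activate the genes of S phase. Origins are licensed when CDC6 and CDT1 load the MCM helicase, CDC45 and GINS activate it, primase and the polymerases copy the strands, and the clamp PCNA, placed by replication factor C, holds the polymerases on DNA. Macrophage precursors in marrow culture divide in response to M-CSF and leave the cycle as they mature. The same transcripts are therefore widely used as a readout of how many cells of a culture are in late G1 and S phase. In a bulk sample, fewer cells in cycle and less of each transcript per cell cannot be told apart.

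Many of these genes are known E2F targets, so the letters of their promoters are shown first. Promoters (250 bases before to 50 after the start of the gene) came from RefSeq, build GRCm38.p6, and 32 of the 38 genes matched an entry. Ccnd1, Ccne2, Gins1, Gins2, Mcm4 and Pole had none there. The words TTTCCCGC, TTTCGCGC, TTTGCCGC and TTTGGCGC, spelled as E2F sites, were searched on both strands, and words of opposite strands can overlap. Some genes have several promoters, and a gene was counted if any of its promoters held a word, as for Mcm7, Uhrf1 and Lig1. At least 1 word lay in a promoter of 13 of the 32 genes (40.6%). The share was 4.33% of the 10833 tested genes with a promoter and 2.6% of all 27025 genes with one. The stretches below belong to 7 genes with a word before or across the start, among them genes with large and with small differences between the arrays. They run 5′ to 3′ on the strand of the gene, with the words in capitals.
Pclaf (chr9:65890303-65890325, plus strand): aagcgcttggagcgcGCGGGAAA
Mcm5 (chr8:75109341-75109382, plus strand): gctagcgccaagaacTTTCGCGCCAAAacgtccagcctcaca
Mcm6 (chr1:128359730-128359830, minus strand): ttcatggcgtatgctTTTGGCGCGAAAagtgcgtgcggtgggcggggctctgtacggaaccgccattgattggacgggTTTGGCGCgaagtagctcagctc
Mcm7 (chr5:138172026-138172063, minus strand): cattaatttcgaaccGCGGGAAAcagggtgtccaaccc
Hells (chr19:38930913-38930950, plus strand): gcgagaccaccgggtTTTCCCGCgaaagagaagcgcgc
Cdc6 (chr11:98907998-98908035, plus strand): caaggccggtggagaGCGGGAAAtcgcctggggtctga
Rfc3 (chr5:151651209-151651233, minus strand): agtgacgtcgcacgcTTTCGCGCtc
The word in Pclaf begins 5 bases before the start and runs across it. In Mcm5, 2 words on opposite strands overlap, the first beginning 153 bases before the start, and Mcm6 holds 3 words, 2 of them overlapping. In Hells the word begins 62 bases before the start. Mcm7 and Rfc3 each hold a further word at or after the start, outside the stretch printed. At least 2 words were found in 1 promoter for 5 of the 32 genes (15.6%) and for 0.203% of tested genes with a promoter. Rrm2 and Tk1, which are described below among the 3 members with the largest differences between arrays, held none of these exact words. A match of letters describes the promoter and is no measurement of binding.

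Before the members, the arrays and the cells were checked. Vim read 7.43 ± 0.67 (SD, n = 3) on the vimentin-deficient arrays, against a wild-type level of 13.32 ± 0.09 (SD, n = 3), which is a difference of -5.89 in log2 (SE 0.31, with a Benjamini-Hochberg adjusted p of 0.00414 from limma). On vimentin-deficient replicates 1, 2 and 3 singly, Vim read 8.2, 6.96 and 7.13. Array medians lay between 7.23 and 7.25. Over all probe sets, vimentin-deficient replicate 3 correlated with the other arrays at 0.975 to 0.979, whereas the other 5 arrays correlated at 0.992 to 0.998, so results are given with and without it. The 3′ minus 5′ signal of the Actb control probe sets was 0.23 on that array and 0.18 to 0.21 on the others, and for Gapdh the range over all 6 was -0.02 to 0.01. All 8 macrophage markers were measured, and their mean log2 level was 12.36 on vimentin-deficient replicate 3 and 11.91 to 12.07 on the others. Markers of granulocytes, B cells, T and NK cells, dendritic cells, erythroid cells and fibroblasts had mean levels of 6.56 to 7.62, near the array medians, on every array. Single markers lay higher, such as Cd3e of T cells at 9.08 to 9.27 and Itgax of dendritic cells at 7.86 to 9.05. Among all marker genes, only Cd14 (higher) and Itgax (lower) passed limma's adjusted threshold without vimentin-deficient replicate 3.

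The replication genes varied together between arrays of the same genotype, and vimentin-deficient replicate 3 was the array with the lowest values. Relative to the wild-type mean, the 37 genes averaged 0.44 on vimentin-deficient replicate 1, 0.22 on replicate 2 and -1.0 on replicate 3, on the log2 scale. The wild-type arrays averaged 0.35, -0.31 and -0.03. All tested genes together stayed between -0.04 and 0.01 on the same scale. Vimentin-deficient replicate 3 was the lowest of the 6 arrays for 34 of 37 members, against 35.9% of tested genes, the exceptions being Cdc45, Pcna and Slbp. It lay more than 1 log2 unit below the mean of vimentin-deficient replicates 1 and 2 for 22 of 37 members and for 1.71% of all tested genes. The median difference was -1.23 over the members and -0.03 over all tested genes, and 0 members lay more than 1 log2 unit higher. These are differences between single arrays of 1 genotype, given as a description with no test.

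**Figure D1:**
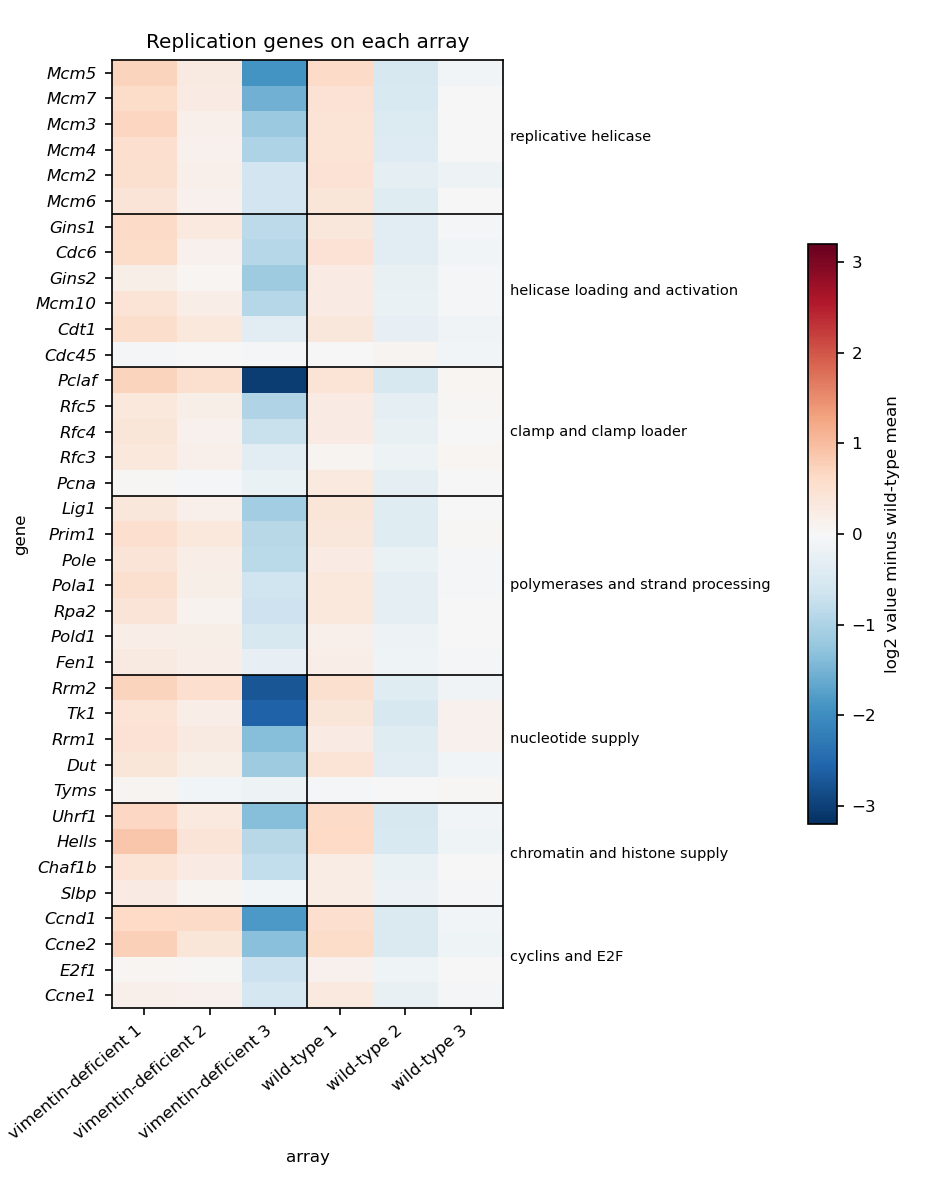
Log2 value of each of 37 replication genes (rows, grouped by role) on each of the 6 arrays (columns), minus the mean of the 3 wild-type arrays for that gene, with red higher and blue lower. The column of vimentin-deficient replicate 3 is the bluest, its mean being -1.0, and among wild-type arrays replicate 1 is reddish (0.35) and replicate 2 pale blue (-0.31).

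The replicative helicase is the ring of MCM2 to MCM7 that unwinds the double strand. Mcm5 read 10.63, 10.21 and 7.99 on vimentin-deficient replicates 1, 2 and 3, and 10.52, 9.40 and 9.82 on wild-type replicates 1, 2 and 3. Mcm7 read 10.73, 10.42 and 8.61 on the vimentin-deficient arrays and 10.62, 9.67 and 10.16 on the wild-type arrays. Mcm3 read 9.89, 9.38 and 8.03, against 9.64, 8.77 and 9.21. For all of these the genotypes overlapped, with the first replicate of each genotype highest, vimentin-deficient replicate 3 lowest and wild-type replicate 2 next to it. The gap between vimentin-deficient replicate 3 and the mean of the other vimentin-deficient arrays was -2.43 for Mcm5, -1.97 for Mcm7 and -1.61 for Mcm3. Mcm4 had a gap of -1.33, Mcm2 of -0.94 and Mcm6 of -0.88. On the probe sets used, the 6 subunits of 1 complex thus differed in the size of the gap while keeping the same order of arrays. The 3 other Mcm7 probe sets had gaps of -1.43 to -1.96. The other Mcm2 probe set, however, had a gap of -1.84, and other Mcm6 probe sets had gaps of -0.94 and -0.17. The size of the gap therefore also varied between probe sets of the same gene, and a difference between subunits was not tested.

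Of the genes that load and activate the helicase, all but Cdc45 had the same order of wild-type arrays. Cdc6, the loader, read 7.96, 7.51 and 6.45 on the vimentin-deficient arrays and 7.83, 7.0 and 7.27 on the wild-type arrays. Cdt1, its partner in licensing, read 10.66, 10.45 and 9.76, against 10.47, 9.84 and 9.99. The gap of Cdt1, -0.79, was smaller than those of Gins1 (-1.31) and Gins2 (-1.25), subunits of GINS, of Cdc6 (-1.29) and of Mcm10 (-1.23), which encodes an initiation factor that binds the helicase. Cdc45 was the exception: its brightest probe set read 7.45, 7.48 and 7.44 on the vimentin-deficient arrays and 7.49, 7.59 and 7.41 on the wild-type arrays, nearly flat. The other Cdc45 probe set was dimmer but varied, with 7.84, 7.61 and 6.73 against 7.69, 7.18 and 7.36, a gap of -1.0. For Cdc45 the choice of probe set therefore decided whether the gene followed the other members.

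Pclaf, which encodes a PCNA-associated factor, had the largest gap of all. It read 11.08, 10.89 and 7.33 on vimentin-deficient replicates 1, 2 and 3, and 10.81, 9.86 and 10.44 on the wild-type arrays. Both other vimentin-deficient arrays lay above every wild-type array, and replicate 3 lay far below. The gap of -3.66, a 12.6-fold lower signal, was the largest fall measured among the 13445 tested genes. At 7.33 the low array lay near its median of 7.24, so this fold may be compressed and the rank is that of the values as deposited. For comparison, a dimmer Pclaf probe set had a gap of -2.24, while a further one at a mean of 6.69 was flat. Pcna, the clamp itself, stood at the other end, with 12.98, 12.88 and 12.72 on the vimentin-deficient arrays and 13.26, 12.64 and 12.92 on the wild-type arrays. Its gap was -0.21, it has a single probe set, and its lowest array was wild-type replicate 2. Among subunits of the clamp loader, the gap was -1.23 for Rfc5, -0.97 for Rfc4 and -0.58 for Rfc3.

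Genes for polymerases and for the processing of new strands showed moderate gaps, with a median of -1.0 over 7 genes. Prim1, the catalytic primase subunit, read 9.30, 9.12 and 7.89 on the vimentin-deficient arrays and 9.13, 8.38 and 8.80 on the wild-type arrays. Fen1, the flap endonuclease that trims Okazaki fragments, read 10.59, 10.52 and 10.03, against 10.50, 10.15 and 10.25. Lig1, the ligase that joins those fragments, had the largest gap of the 7 at -1.39, and Fen1 the smallest at -0.52. Between them lay Prim1 (-1.32), the polymerase subunits Pole (-1.19), Pola1 (-1.0) and Pold1 (-0.71), and the single-strand binding protein subunit Rpa2 (-0.94).

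The enzymes of deoxynucleotide supply had the largest median gap of the 7 roles, -1.74 over 5 genes. Rrm2, the regulated small subunit of ribonucleotide reductase, read 10.28, 10.11 and 6.83 on the vimentin-deficient arrays and 10.09, 9.18 and 9.46 on the wild-type arrays. Tk1, thymidine kinase, read 9.86, 9.64 and 6.84, against 9.80, 8.90 and 9.56. Their gaps of -3.37 and -2.91, 10.4-fold and 7.52-fold, ranked 5 and 12 of all tested genes. On vimentin-deficient replicate 3, Rrm2 and Tk1 fell below 6.93, the limit on dim genes, so their gaps may be compressed there. Cdc6, Pole, Hells and Ccne2 also lay below that value on this array, making 6 of 37 members, against 2.79% of tested genes. Rrm1, the large subunit of the reductase, read 10.59, 10.40 and 8.75, against 10.37, 9.74 and 10.25. Dut, which removes dUTP, read 8.90, 8.71 and 7.39, against 8.95, 8.16 and 8.44. Their gaps were -1.74 and -1.41, with Dut near the array median of 7.24 on the low array.

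Tyms, thymidylate synthase, was flat on its brightest own probe set, at 7.69, 7.52 and 7.45 on the vimentin-deficient arrays and 7.57, 7.63 and 7.64 on the wild-type arrays. A brighter probe set that the annotation assigns to Tyms and to Tyms-ps, a pseudogene of it, read 9.13, 9.02 and 7.78 against 8.96, 8.40 and 8.68, with a gap of -1.30. The rule kept to probe sets of a single gene, and the share of that signal that comes from Tyms was not tested.

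Among genes for chromatin behind the fork, Hells and Uhrf1 varied most. Hells, a chromatin remodeller linked to DNA methylation, read 8.60, 8.14 and 6.82 on the vimentin-deficient arrays and 8.37, 7.22 and 7.57 on the wild-type arrays. Uhrf1, which brings the maintenance methyltransferase to new DNA, read 9.0, 8.67 and 6.99, against 8.96, 7.84 and 8.25. Their gaps were -1.55 and -1.85. Chaf1b, the measured subunit of chromatin assembly factor 1, had a gap of -1.15, and Slbp, which binds the stem-loop of histone mRNA, one of only -0.26.

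Of the cyclins, Ccnd1 and Ccne2 varied more than Ccne1. Ccnd1, cyclin D1, which links growth factor signals to the cycle, read 12.11, 12.08 and 9.63 on the vimentin-deficient arrays and 12.02, 11.02 and 11.40 on the wild-type arrays. Ccne2, cyclin E2, read 8.54, 8.17 and 6.44, against 8.37, 7.32 and 7.64. Their gaps were -2.46 and -1.91, whereas that of Ccne1, cyclin E1, was -0.72. E2f1, the transcription factor of the same switch, read 9.55, 9.54 and 8.81 on the vimentin-deficient arrays and 9.64, 9.36 and 9.49 on the wild-type arrays, a gap of -0.73. Pclaf, Rrm2, Tk1, Ccnd1 and Mcm5 were the 5 members more than 2 log2 units lower on vimentin-deficient replicate 3, against 0.327% of tested genes.

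**Figure D2:**
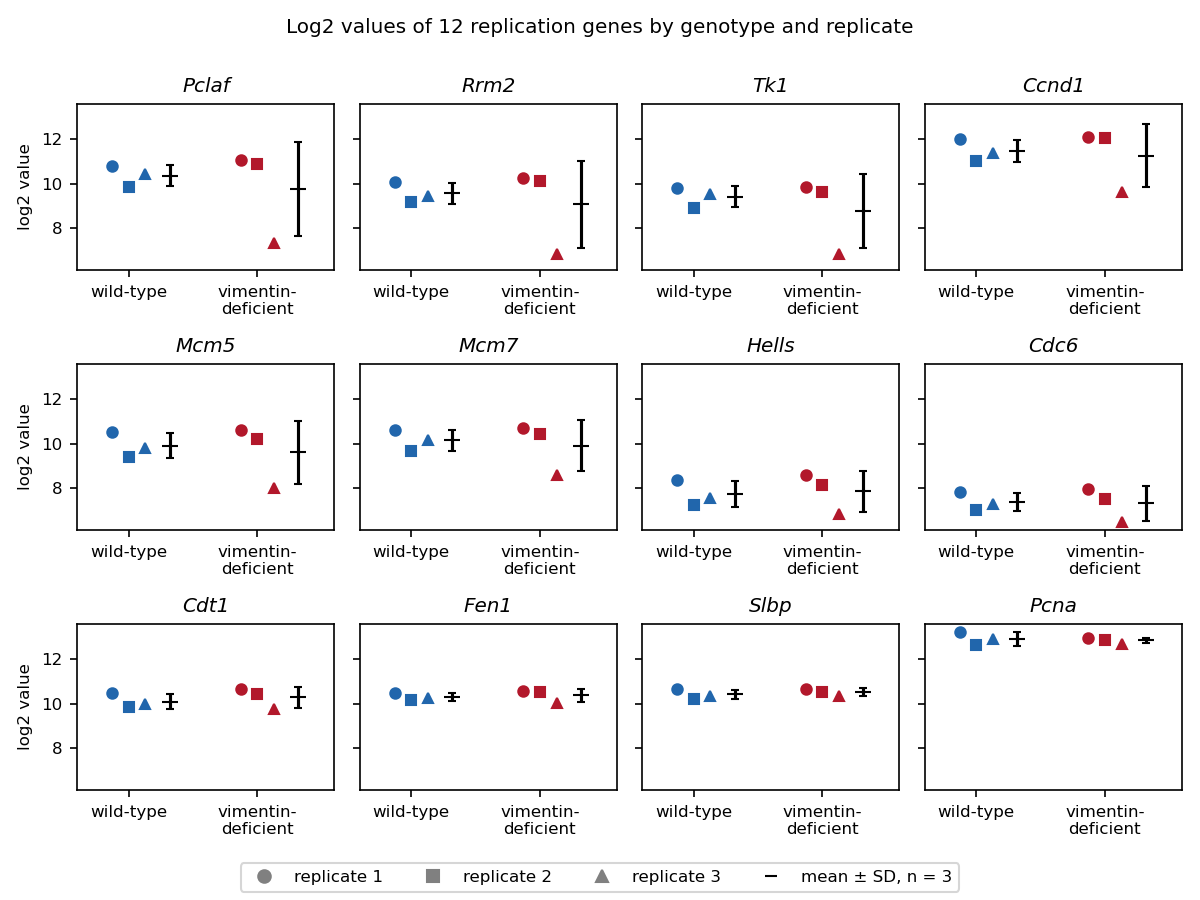
Log2 values of 12 replication genes on the wild-type (blue) and vimentin-deficient (red) arrays, with a marker shape for each replicate and the mean ± SD (n = 3) beside each genotype. Vimentin-deficient replicate 3 (red triangle) lies at 7.33 for Pclaf against 10.89 and 11.08 for the other vimentin-deficient arrays, and at 12.72 against 12.88 and 12.98 for Pcna.

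The wild-type arrays, which hold no vimentin-deficient cells, also differed in these genes. Wild-type replicate 1 was highest and replicate 2 lowest of the wild-type arrays for 35 of 37 members, against 21.4% of tested genes, the exceptions being Cdc45 and Tyms. Replicate 1 exceeded replicate 2 by more than 0.5 log2 units for 26 of 37 members, against 1.3% of tested genes. The median difference between these arrays was 0.66 over the members and -0.01 over all tested genes. Hells (1.15), Mcm5 (1.12), Uhrf1 (1.12) and Ccne2 (1.06) ranked 2 to 5 of all tested genes, and Ccnd1, at 1.00, ranked 8. Wild-type replicate 2 was the second lowest of all arrays, next to vimentin-deficient replicate 3, for 33 of 37 members, against 11.2% of tested genes.

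On the vimentin-deficient side, replicate 1 read above replicate 2 for 36 of 37 members, against 51.8% of tested genes, with Cdc45 the exception. The members with the larger gap between wild-type replicates 1 and 2 also had the larger gap on vimentin-deficient replicate 3. Across the 37 genes the Spearman coefficient was -0.84 and the Pearson coefficient -0.73, given as a description because the genes share the same arrays and are not independent. Pcna departed from this pattern: it differed by 0.62 between wild-type replicates 1 and 2 and by -0.21 on vimentin-deficient replicate 3. Among the 26 members with a wild-type difference above 0.5, the gap on vimentin-deficient replicate 3 was 1.79 times the wild-type difference in the median, and the ratio ran from 0.34 to 3.86, the highest being that of Pclaf.

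**Figure D3:**
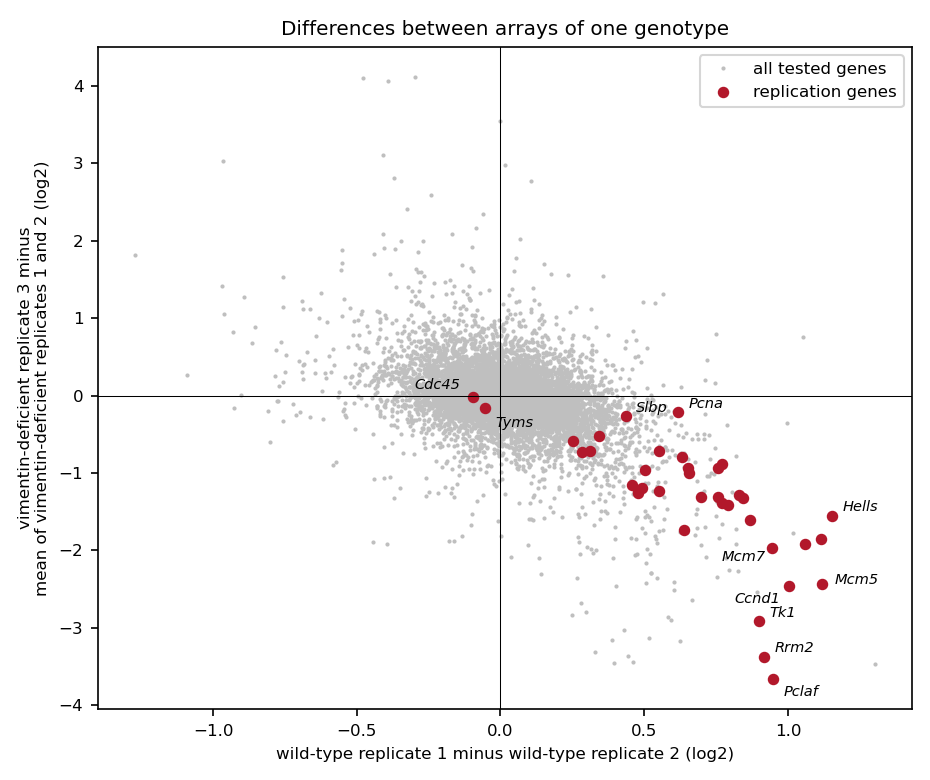
Difference between wild-type replicates 1 and 2 (horizontal axis, log2) and between vimentin-deficient replicate 3 and the mean of vimentin-deficient replicates 1 and 2 (vertical axis, log2) for all 13445 tested genes (grey) and for the 37 replication genes (red). Members lie at the lower right, from Pclaf at 0.95 and -3.66 to Cdc45 and Tyms near 0 on both axes.

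The comparison of genotypes asked whether macrophages without vimentin differ in these transcripts. With all 6 arrays, 0 of 37 members passed the limma threshold of an adjusted p under 0.05 (Benjamini-Hochberg over all tested genes), where 3 of 13445 genes passed (0.0223%), all of them lower. Counted by limma's p without adjustment, at the same 0.05, there were also 0 members, against 7.97% of tested genes. The members' adjusted p-values ran from 0.846 to 1.00 and their log2 fold changes from -0.64 (Tk1) to 0.19 (Cdt1), with a median of -0.08 over the members and -0.02 over all tested genes. The mean was lower in vimentin-deficient macrophages for 28 of 37 members, against 60.4% of tested genes. That count rested on single arrays: it was 11 without wild-type replicate 1 and 3 without vimentin-deficient replicate 3. There were 0 members whose genotypes did not overlap, against 10.1% of tested genes that lay lower and 5.32% that lay higher on every vimentin-deficient array.

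The spread within genotypes set the precision of that comparison. The median SD of the members was 0.72 between vimentin-deficient arrays and 0.34 between wild-type arrays, where all tested genes had 0.10 and 0.07. The median SE of the genotype difference was 0.34 for the members and 0.08 for all tested genes. Pclaf had a log2 fold change of -0.60 (SE 0.96), Rrm2 of -0.50 (SE 0.89) and Tk1 of -0.64 (SE 0.77), so that even these differences were smaller than their errors. Pcna, with a gap of only -0.21 on the low array, had a log2 fold change of -0.08 (SE 0.16). A difference of the size of 1 SE was not detectable for these genes at 3 arrays per genotype.

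Without vimentin-deficient replicate 3 the sign of most differences turned. The mean of vimentin-deficient replicates 1 and 2 exceeded the wild-type mean for 34 of 37 members, against 44.5% of tested genes, the exceptions being Cdc45, Pcna and Tyms. The median log2 fold change was 0.33 over the members and -0.01 over all tested genes. Still 0 of 37 members passed limma's adjusted threshold, where 315 of 13445 tested genes did (2.34%), 176 higher and 139 lower. At an unadjusted limma p under 0.05, 15 members were higher and 0 lower, against 7.11% of tested genes that were higher. The members' smallest limma adjusted p in this fit was 0.168, for Chaf1b, with a log2 fold change of 0.36 (SE 0.12). Hells had the highest value, 0.65 (SE 0.26), followed by Rrm2 with 0.62 (SE 0.21), Pclaf with 0.62 (SE 0.21) and Ccnd1 with 0.61 (SE 0.21), and limma adjusted p-values of these ran from 0.176 to 0.281.

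These higher values rested in part on which wild-type arrays they were set against. Vimentin-deficient replicates 1 and 2 both exceeded wild-type replicates 2 and 3 for 34 of 37 members, against 20.4% of tested genes. They exceeded all 3 wild-type arrays for 8 members, against 11.9% of tested genes. These 8 were Pclaf, Rfc3, Pold1, Fen1, Rrm1, Rrm2, Chaf1b and Ccnd1. For Mcm5, for example, wild-type replicate 1 at 10.52 lay between vimentin-deficient replicates 1 and 2 at 10.63 and 10.21.

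**Figure D4:**
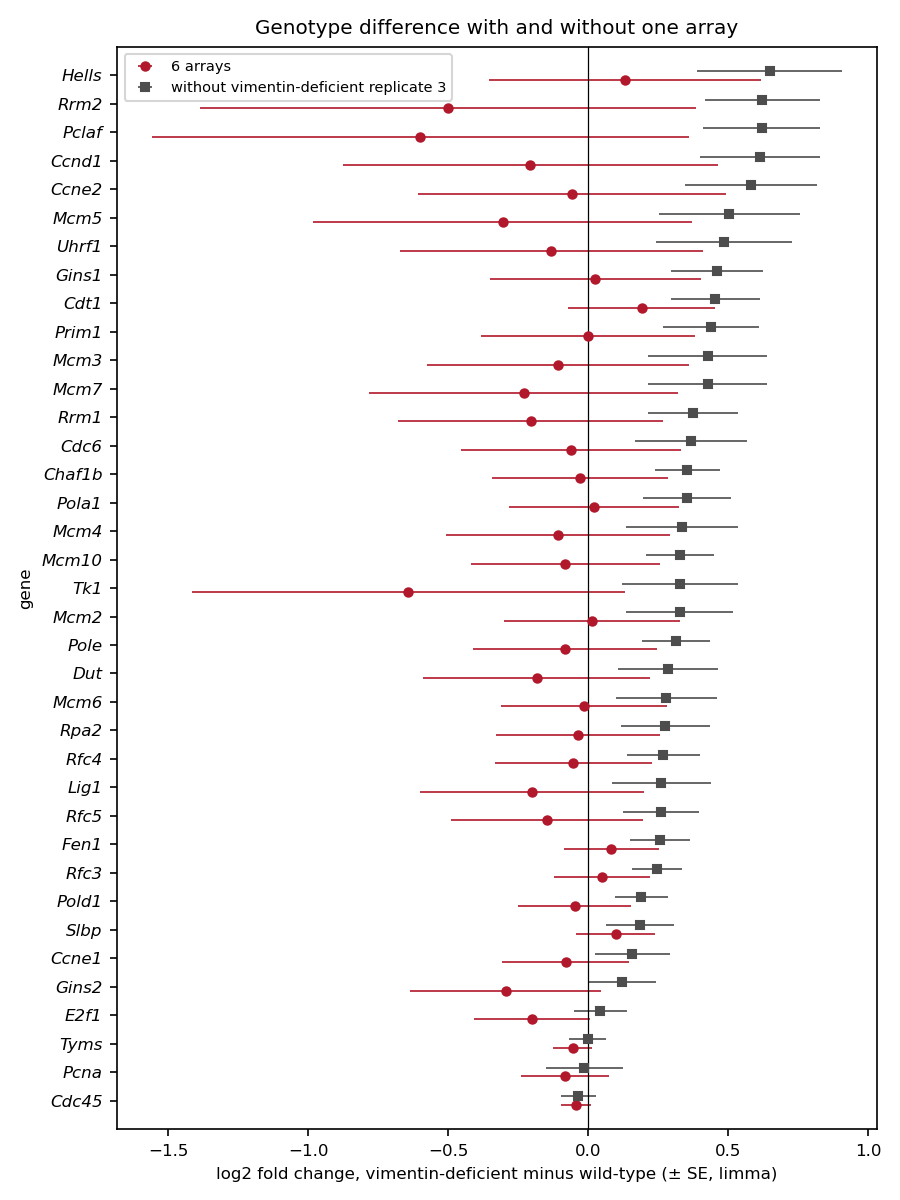
Limma log2 fold change (± SE), vimentin-deficient minus wild-type, of the 37 replication genes with all 6 arrays (red circles) and without vimentin-deficient replicate 3 (grey squares). Red circles lie between -0.64 and 0.19 and grey squares between -0.04 and 0.65, and 0 of 37 genes pass the adjusted threshold in either fit.

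Other probe sets of the same genes were read where the array holds them. The members have 85 probe sets in all that name 1 gene, and 30 members have several. Of the 48 not used above, 33 had a mean at or above the limit of 6.93, and on 32 of these vimentin-deficient replicate 3 was the lowest array, with a median gap of -1.35. Wild-type replicate 1 exceeded replicate 2 on 31 of the 33. The 15 dimmer ones had a median gap of -0.07, with vimentin-deficient replicate 3 lowest on 6. Among tested genes, read from 1 probe set each, that array was lowest for 35.9%. Shares over all probe sets were not counted.

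Promoter words and array values were set side by side for the members with a RefSeq promoter. The median gap on vimentin-deficient replicate 3 was -1.39 for the 13 members with an E2F word and -0.95 for the measured members without one. Of those 13, 8 were more than 1 log2 unit lower (61.5%), and of the 18 measured members without a word, 8 were (44.4%). Over all tested genes, 4.48% of those with a word and 1.6% of those without were more than 1 log2 unit lower on that array. Gaps of the genes with a word ran from -3.66 for Pclaf and -2.43 for Mcm5 to -0.58 for Rfc3, the first of whose words begins 10 bases before the start. Mcm6, which holds the most words of any member, had a gap of -0.88. The 5 members with the smallest gaps on the probe sets used, Fen1, Slbp, Pcna, Tyms and Cdc45, held none of these words. That cut was made after the values were seen, and the other Fen1 probe set had a gap of -0.81. Rfc3 came next in size, and Pold1 (-0.71) and Cdt1 (-0.79) also hold a word. Rrm2 (-3.37) and Tk1 (-2.91), with far larger gaps, held none. A relation between words and gaps was not tested. Cdc45 and Tyms count among the 18 without a word, and their gaps depended on the probe set. The other Cdc45 probe set had a gap of -1.0, and the probe set shared by Tyms and Tyms-ps had -1.30. CCAAT, the word of the factor NF-Y, was searched on both strands. It lay in a promoter of 18 of 32 members (56.2%) and of 42.2% of tested genes with a promoter. Of tested genes, 2.65% with CCAAT and 1.05% without were more than 1 log2 unit lower on vimentin-deficient replicate 3. Among the measured members these shares were 52.9% and 50%.

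Further genes of the cycle were read from 6 lists, all of them chosen with earlier results of these data known. With 6 arrays, 0 genes of any of these lists passed limma's adjusted threshold in either direction. Of 18 other licensing and helicase-loading genes, 0 were more than 1 log2 unit lower on vimentin-deficient replicate 3, against 1.71% of all tested genes. Their median gap was -0.27. Orc4, an origin recognition subunit, had the smallest limma p of that list, with 8.51, 8.41 and 8.74 on the vimentin-deficient arrays and 8.40, 8.24 and 8.30 on the wild-type arrays (log2 fold change 0.24, SE 0.10, limma adjusted p = 0.607). Of 23 tested polymerase, clamp loader and fork genes, 6 were more than 1 log2 unit lower on that array, led by Top2a, topoisomerase II alpha, with a gap of -2.86 (median -0.61). Of 13 checkpoint and repair genes, 4 were, led by Rad51ap1 at -2.10 (median -0.72).

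G1/S regulators outside the member list numbered 19, with a median gap of -0.47. Of these, 6 genes were more than 1 log2 unit lower, against 1.71% of all tested genes. Ccna2, cyclin A2 of S phase and G2, had the largest gap, -3.17. E2f2, an activating E2F, was higher on every vimentin-deficient array, with 8.87, 8.74 and 8.82 against 8.60, 8.36 and 8.41 (log2 fold change 0.36, SE 0.08, limma adjusted p = 0.339), and its gap on replicate 3 was 0.02. Without vimentin-deficient replicate 3, 2.34% of all tested genes passed, and of the 6 lists Ccnd2, cyclin D2, was the 1 gene that did. Ccnd2 read 9.21, 8.93 and 7.55 on the vimentin-deficient arrays and 8.0, 8.10 and 8.0 on the wild-type arrays. In that fit the log2 fold change of Ccnd2 was 1.04 (SE 0.09, adjusted p of 0.000218 from limma), and with all 6 arrays it was 0.53 (SE 0.40, adjusted p of 0.771 from limma). Unlike Ccnd1, it was nearly level among the wild-type arrays.

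Inhibitors of the cycle and pocket protein genes were mixed. The 14 tested genes of that list had a median gap of -0.09. Cdkn1a, which encodes p21, was the 1 gene more than 1 log2 unit lower on vimentin-deficient replicate 3, against 1.71% of all tested genes. Its gap was -1.10, while Cdkn1c, which encodes p57, was higher there, with a gap of 0.89. Gaps were also negative for Cdkn2c (-0.86), Cdkn2b, Cdkn2d, Rbl1, Lin9 and Lin54. They were positive for Cdkn1b (0.31), Rb1, Fbxw7, Lin37, Rbl2 and Lin52. Rbl1 had the wild-type order of the members, with 9.38, 8.65 and 8.98 on wild-type replicates 1, 2 and 3. Cdkn1b, which encodes p27, read 9.14, 9.83 and 9.46 on wild-type replicates 1, 2 and 3, opposite in order to the members, and 9.41, 9.60 and 9.81 on the vimentin-deficient arrays. The G2/M and mitosis list had the lowest median gap of the 6, -1.65 over 24 genes, with 19 genes more than 1 log2 unit lower. Its wild-type difference between replicates 1 and 2 had a median of 0.41. For Birc5, survivin, the gap was -3.44, and for Cenpa, the centromeric histone, it was -0.28.

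**Figure D5:**
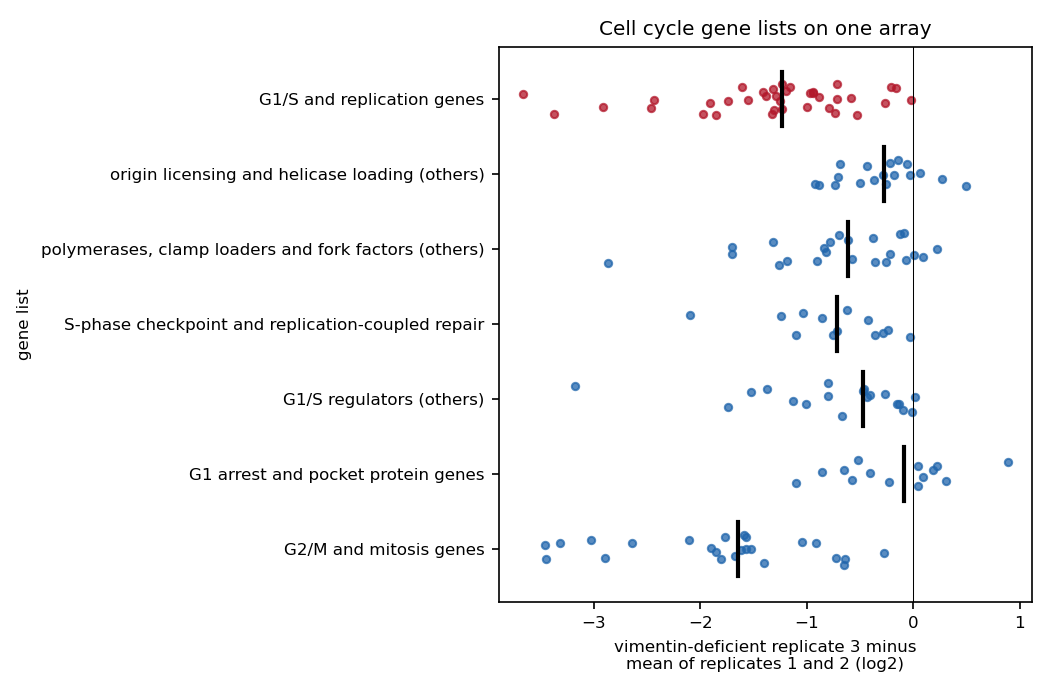
Difference of vimentin-deficient replicate 3 from the mean of vimentin-deficient replicates 1 and 2 (log2) for each tested gene (points) of the replication genes (red) and of 6 other cell cycle lists (blue), with the median as a black bar. The median is -1.23 for the replication genes, -1.65 for G2/M and mitosis genes, -0.27 for the other licensing genes and -0.09 for G1 arrest and pocket protein genes.

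Some markers of cell type also differed on the array with the low replication values, while others did not. Fcgr1, the high-affinity Fc receptor of macrophages, read 9.98, 10.21 and 11.70 on the vimentin-deficient arrays and 9.82 to 10.09 on the wild-type arrays. Csf1r, the M-CSF receptor, read 13.05, 13.10 and 13.63, against 13.09 to 13.35. Itgam, an integrin of myeloid cells, read 10.62, 10.49 and 9.60, against 10.30 to 10.41. Gaps of the other macrophage markers were 0.68 for Mertk, 0.48 for Cd14, 0.37 for Adgre1, 0.28 for Lyz2 and -0.03 for Cd68. Adgre1, at 12.67 on that array, lay within the wild-type range of 12.47 to 12.69. Of the stem and progenitor markers, 5 of 6 were measured and their mean level was 7.05 on vimentin-deficient replicate 3 and 7.36 to 7.44 on the other arrays. Kit, the stem cell factor receptor, carried that difference, with 9.05, 8.68 and 7.2 against 8.52 to 8.64, while the gaps of Cd34, Flt3, Gata2 and Myb lay between -0.12 and -0.02. All 5 osteoclast markers were measured, with a mean of 7.31 on that array and 6.92 to 7.02 on the others, and most of that came from Ctsk, which read 7.44, 7.49 and 9.01, against 7.37 to 7.72. Acp5 had a gap of 0.33, and Calcr, Oscar and Ocstamp lay between -0.08 and 0.05. The part of the cell mix in the lower replication values was not tested.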

How the data were processed

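Gene expression was measured on 6 arrays, 3 per genotype. The authors deposited 1 log2 value per probe set and array, and these values run from 5.43 to 14.5. How probes were summarised and arrays normalized is, for these values, not given in the sources used here, and background cannot be separated from the values, so folds of dim genes can be compressed. Levels were not compared between probe sets of different genes.

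There were 45101 probe sets, including 64 controls. In GEO's platform annotation 34945 named 1 gene and 932 several, and 34741 symbols were updated by Entrez ID with a GRCm38.p6 gene table. Genes at or above the 40th percentile of probe set means, 6.93, entered a linear model without covariates (limma 3.58.1, R 4.3.3, lmFit and then trended eBayes), vimentin-deficient minus wild-type, with Benjamini-Hochberg adjustment over all tested genes. The procedure was checked on simulated data with independent noise in each gene, which held no array that stands apart. The labels call the samples biological replicates, and p-values measure the spread between these samples.

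The members and all lists were chosen with earlier results of these data known. Values on every array are given for the 12 members with the largest and the 3 with the smallest difference of vimentin-deficient replicate 3 from replicates 1 and 2, for any member past the threshold and for at least 1 member of each role. Of other lists, counts and up to 3 genes with the smallest limma p were taken, and other genes named from them and from the markers were chosen after their values were seen.

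Alternatives were quantile normalization, median centring, the filter, the probe set rule, the variance model, array quality weights, the replicate number as a block, and leaving out each array. Promoter words were searched in the RefSeq promoter table, without the chromosome that is not analysed here.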

Additional observations from a re-analysis of the deposited data

How the results depend on the processing

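In all 15 other fits, 0 of 37 members passed limma's adjusted threshold, as with the values as deposited. The median log2 fold change of the members, -0.08, ran from -0.32 to 0.33 when 1 array was left out and was 0.24 with array quality weights, which gave vimentin-deficient replicate 3 a weight of 0.23. The number of members with a lower vimentin-deficient mean was 4 with those weights and ran from 3 to 35 when 1 array was left out, with 3 without vimentin-deficient replicate 3 and 11 without wild-type replicate 1. The count of all tested genes past the threshold was 93 with array quality weights and ran from 0 to 315 when 1 array was left out. With array quality weights the sign turned to 0.36 for Mcm5, 0.26 for Mcm10, 0.31 for Pclaf, 0.38 for Rrm2, 0.072 for Tk1, 0.28 for Chaf1b and 0.43 for Ccnd1. Leaving out 1 array moved the log2 fold change of Mcm5 between -0.81 and 0.50, Mcm10 between -0.34 and 0.33, Pcna between -0.23 and 0.076, Pclaf between -1.26 and 0.62, Rrm2 between -1.11 and 0.62, Tk1 between -1.18 and 0.33, Hells between -0.24 and 0.65, Chaf1b between -0.27 and 0.36, and Ccnd1 between -0.62 and 0.61. Of the 37 members, 25 changed sign without vimentin-deficient replicate 3 and 17 without wild-type replicate 1. The share of all tested genes that changed sign was not counted, so these counts are not a trait of the members. Quantile normalization and median centring left the mean of the members on vimentin-deficient replicate 3 at -1.0, and the mean of all probe sets of a gene gave -0.84 over 36 tested members. The 60th percentile filter left 33 members. With the replicate number as a block, 0 of all tested genes passed and the median of the members stayed at -0.08. Deviations of arrays with the same number from their genotype means correlated at 0.50, -0.19 and 0.05. Vimentin-deficient replicate 3 enters the mean of its genotype, so these values cannot settle whether arrays of the same number belong together. Replicate 1 of either genotype was the highest of the 6 arrays for 36 of 37 members, against 28.7% of tested genes. The main fit took no pairs, and whether the numbers are pairs was not tested. The number of arrays limits every comparison.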
